A study of Mus musculus with 6 samples.

Results

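The Cyp3a family of the mouse comprises cytochrome P450 enzymes, and its rows in the liver RNA-Seq table of g*Spns1*-cKO and control mice are described here. The members were taken by gene name and by no rule on measured values, but with earlier results of these data known. They are *Cyp3a11*, *Cyp3a13*, *Cyp3a16*, *Cyp3a25*, *Cyp3a41a*, *Cyp3a41b*, *Cyp3a44*, *Cyp3a57* and *Cyp3a59*, which are 9 of the 54532 genes listed. RNA was sequenced from 3 g*Spns1*-cKO and 3 control livers, 1 library per animal, all on a C57BL/6 background. The g*Spns1*-cKO mice carried *Spns1* fl/fl alleles together with Rosa26Cre-ERT2, a Cre recombinase that is active in the whole body once tamoxifen is given, and 50 mg/kg of tamoxifen was injected on postnatal days 11, 13 and 15 to remove exon 3 of *Spns1*. In the methods the controls are *Spns1* fl/fl littermates, whereas the sample labels call them wild type. The sources used here do not say whether the controls received tamoxifen, so that deletion of *Spns1*, Cre and tamoxifen cannot be told apart, and they do not give the age of the animals at collection.

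Cyp3a enzymes sit in the membrane of the endoplasmic reticulum, where they oxidize steroids, bile acids and many drugs with electrons passed on by P450 oxidoreductase. In the adult mouse liver *Cyp3a11* is the main drug-inducible member and is regulated by the nuclear receptors PXR and CAR, *Cyp3a16* is known as a fetal and neonatal form, and *Cyp3a41a* and *Cyp3a44* are known as forms of the female liver. The genes are recent duplicates of each other and lie on chromosome 5, so part of the reads from a member can match another member equally well.

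The bases around the codon of the heme-binding cysteine, the residue that all P450 enzymes use to hold the iron of the heme, are shown first because they let a reader see how the members fall into groups of close copies. Each stretch was read from the GENCODE transcripts (GRCm38) in the sense direction, lies in exon 12 of 13 and is 75 bases long. Capitals mark the bases that differ from *Cyp3a11*.
*Cyp3a11*, chr5:145858775-145858849, minus strand: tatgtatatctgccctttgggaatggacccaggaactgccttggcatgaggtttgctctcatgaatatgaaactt
*Cyp3a16*, chr5:145440411-145440485, minus strand: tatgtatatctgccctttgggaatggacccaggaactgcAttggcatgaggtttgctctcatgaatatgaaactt
*Cyp3a44*, chr5:145777975-145778049, minus strand: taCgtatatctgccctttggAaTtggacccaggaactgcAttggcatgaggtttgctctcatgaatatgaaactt
*Cyp3a41a*, chr5:145698191-145698265, minus strand: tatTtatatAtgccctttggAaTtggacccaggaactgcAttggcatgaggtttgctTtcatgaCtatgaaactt
*Cyp3a41b*, chr5:145562801-145562875, minus strand: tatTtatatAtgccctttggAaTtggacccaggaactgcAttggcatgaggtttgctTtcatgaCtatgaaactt
*Cyp3a25*, chr5:145981438-145981512, minus strand: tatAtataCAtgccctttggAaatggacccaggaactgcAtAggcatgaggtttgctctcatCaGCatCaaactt
*Cyp3a59*, chr5:146109077-146109151, plus strand: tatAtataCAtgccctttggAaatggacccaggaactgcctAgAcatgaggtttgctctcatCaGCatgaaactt
*Cyp3a57*, chr5:145386992-145387066, plus strand: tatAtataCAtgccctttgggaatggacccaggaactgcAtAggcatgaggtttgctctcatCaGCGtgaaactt
*Cyp3a13*, chr5:137895237-137895311, minus strand: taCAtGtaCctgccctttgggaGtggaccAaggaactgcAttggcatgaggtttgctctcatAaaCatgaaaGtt

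In this stretch *Cyp3a16* differed from *Cyp3a11* at 1 base, *Cyp3a44* at 4, both *Cyp3a41* copies at 7, *Cyp3a57* and *Cyp3a59* at 9, and *Cyp3a13* and *Cyp3a25* at 10. The *Cyp3a41a* and *Cyp3a41b* stretches were identical. Over the aligned coding sequence the same groups appeared. *Cyp3a11*, *Cyp3a16*, *Cyp3a41a*, *Cyp3a41b* and *Cyp3a44* had between 92.4% and 99.9% of aligned bases in common, and *Cyp3a25*, *Cyp3a57* and *Cyp3a59* between 93.9% and 97.5%. *Cyp3a41a* and *Cyp3a41b* differed at 2 of 1515 aligned positions, and *Cyp3a25* and *Cyp3a59* at 38 of 1512. *Cyp3a13* had at most 76.5% in common with any other member. It also stood apart on the chromosome, at chr5:137892932-137921619 on the minus strand, whereas the 8 other members lay between chr5:145345279 and chr5:146113287. *Cyp3a57* and *Cyp3a59* are on the plus strand there and the other members on the minus strand. The only annotated gene to overlap a member was *Gm15502*, a processed pseudogene within *Cyp3a13*.

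How far counts of single members can be separated was measured by how often a stretch of a member's transcript occurs unaltered in a transcript of another gene. At a length of 150 bases, 82.9% of the stretches of *Cyp3a41a* and 82.7% of those of *Cyp3a41b* were found in another gene, in each case only the other copy. The values were 0.706% for *Cyp3a59*, 0.702% for *Cyp3a25* and 0 for the other 5 members. At 50 bases they rose to 98.6% for *Cyp3a41a*, 28.0% for *Cyp3a59*, 26.8% for *Cyp3a25*, 26.5% for *Cyp3a44*, 14.8% for *Cyp3a11*, 10.7% for *Cyp3a16* and 8.88% for *Cyp3a57*, and stayed at 0 for *Cyp3a13*. *Cyp3a59* shared 24.7% of its 50-base stretches with *Cyp3a25* and 7.06% with *Cyp3a57*. Read length and the treatment of reads that match several genes are not given in the sources used here, so the counts of *Cyp3a41a* and *Cyp3a41b* are uncertain and those of *Cyp3a59*, *Cyp3a57* and *Cyp3a44* less so.

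**Figure D1:**
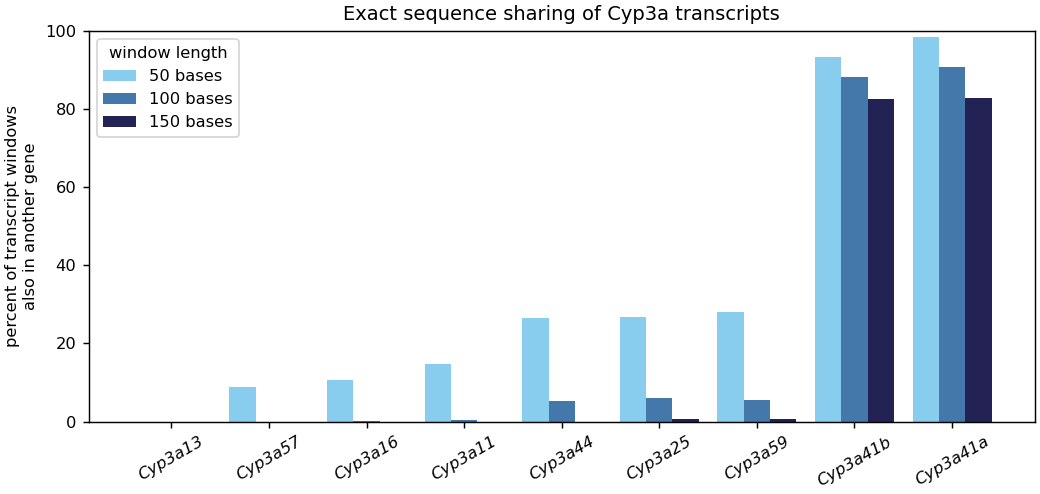
Percent of a member's transcript stretches (vertical axis, 0 to 100) that occur without a mismatch in a transcript of another annotated gene, by member and for stretches of 50, 100 and 150 bases. *Cyp3a41a* and *Cyp3a41b* stay above 80% at every length, with lowest values of 82.9% and 82.7%, and *Cyp3a13* is at 0.

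The libraries held between 30350002 and 35295611 counts. Counts are given as CPM, counts scaled by library size, after TMM scaling, a correction for the make-up of each library, and 3 counts corresponded to between 0.0763 and 0.119 CPM. The scaling factors were 0.834 to 0.873 in control and 1.16 to 1.18 in g*Spns1*-cKO livers. *Spns1* itself was measured at 35.9, 50.7 and 34.6 CPM in control replicates 1, 2 and 3 and at 17.9, 30.6 and 17.8 CPM in g*Spns1*-cKO replicates 1, 2 and 3, without overlap (log2 fold change -0.87, SE 0.25, adjusted p = 0.0300 by edgeR's quasi-likelihood test). *Xist* had at most 5 counts in any library, while the Y-linked *Ddx3y* had between 1731 and 2568 counts, in both groups. This is the pattern of male livers in every library, and the sources used here do not state the sex of the sequenced animals. Markers of cell types moved as well. Of 12 hepatocyte markers 8 were lower and 0 higher (summed level 110800 to 126200 CPM in control and 66880 to 75020 CPM in g*Spns1*-cKO livers), and all 12 macrophage markers were higher (148.8 to 244.6 against 619.3 to 891.2 CPM). Higher calls were also made for 7 of 8 cholangiocyte (60.3 to 78.1 against 188.4 to 302.6 CPM), 8 of 10 stellate and fibroblast (208.0 to 243.7 against 572.4 to 611.0 CPM), 6 of 8 endothelial (182.9 to 191.3 against 258.9 to 309.9 CPM) and 2 of 8 lymphocyte markers (9.28 to 10.6 against 22.1 to 24.8 CPM), and 1 lymphocyte marker was the only lower call in these lists. None of these markers was at 0 in all libraries. In whole liver fewer hepatocytes and less RNA per hepatocyte cannot be told apart, and the part of these shifts in the values that follow was not tested.

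Of the 9 members, 6 had enough counts to be tested. In g*Spns1*-cKO livers 2 of these 6, *Cyp3a57* and *Cyp3a59*, were higher than in control livers, 0 were lower and 4 did not pass the test. The background was large, since 21.3% of the 15449 genes tested were called higher and 20.5% lower, so the count is only a description. *Cyp3a57* passed the filter on low counts only through the g*Spns1*-cKO livers, where it is high, so the count of 2 among the 6 tested says nothing about the family as a whole. The remaining *Cyp3a41a*, *Cyp3a41b* and *Cyp3a44* had too few counts. With a less strict filter that keeps all genes with a count, *Cyp3a44* and *Cyp3a11* were called higher (edgeR adjusted p = 0.00621 and 0.00974). *Cyp3a57* stayed called there, whereas *Cyp3a59* did not (adjusted p = 0.0799). Over all genes that filter gave 3706 higher calls among 26590 tested.

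*Cyp3a11*, the most abundant member, was measured at 2699, 1667 and 2060 CPM in control replicates 1, 2 and 3. In g*Spns1*-cKO replicates 1, 2 and 3 it was at 2838, 3198 and 3177 CPM. The groups did not overlap, but control replicate 1 came close to g*Spns1*-cKO replicate 1. The means were 2142 ± 521 CPM and 3071 ± 202 CPM (SD, n = 3 per group), a 1.43-fold difference with a 95% interval of 1.07 to 1.93 (log2 fold change 0.52, SE 0.19). The edgeR adjusted p was 0.0518, just short of the threshold of 0.05, so *Cyp3a11* was not called. This call was not settled by the data, because it turned with the processing. With limma-voom the adjusted p was 0.0370, and with DESeq2, which made the most false calls of the 3 tools on simulated data, it was 0.0106. Leaving out control replicate 1 gave an adjusted p of 0.0131 and leaving out g*Spns1*-cKO replicate 1 an adjusted p of 0.0400, whereas leaving out any of the other 4 libraries left it between 0.103 and 0.182. Keeping every gene with a count also gave a call (edgeR adjusted p = 0.00974). Scaling by library size alone nearly doubled the log2 fold change, to 0.96.

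*Cyp3a25*, the member with the next highest level, overlapped between the groups. Its level was 554, 376 and 493 CPM in control replicates 1, 2 and 3 and 425, 770 and 613 CPM in g*Spns1*-cKO replicates 1, 2 and 3. The means of 475 ± 90.2 and 602 ± 173 CPM (SD, n = 3 per group) did not differ beyond this spread (log2 fold change 0.35, 95% interval -0.16 to 0.85, edgeR adjusted p = 0.247). Replicate 1 of the g*Spns1*-cKO livers lay below 2 of the 3 control livers, and without it *Cyp3a25* was called higher (log2 fold change 0.54, adjusted p = 0.0345).

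*Cyp3a13*, the divergent member that is also made in the intestine, had a negative estimate. It was at 171, 335 and 301 CPM in control replicates 1, 2 and 3 and at 121, 239 and 202 CPM in g*Spns1*-cKO replicates 1, 2 and 3. The lowest control liver lay below 2 of the 3 g*Spns1*-cKO livers, and the means of 269 ± 86.1 and 187 ± 60.4 CPM (SD, n = 3 per group) did not differ beyond the spread (log2 fold change -0.52, 95% interval -1.31 to 0.27, edgeR adjusted p = 0.252).

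*Cyp3a59*, the close copy of *Cyp3a25*, was higher. Its level was 17.1, 11.9 and 20.4 CPM in control replicates 1, 2 and 3 and 28.1, 80.6 and 66.6 CPM in g*Spns1*-cKO replicates 1, 2 and 3, so the groups did not overlap and g*Spns1*-cKO replicate 1 lay nearer to the control livers than to the other g*Spns1*-cKO livers. The means were 16.5 ± 4.31 and 58.4 ± 27.2 CPM (SD, n = 3 per group), a 3.56-fold difference with a 95% interval of 1.58 to 7.99 (log2 fold change 1.83, SE 0.46, edgeR adjusted p = 0.0282). Without g*Spns1*-cKO replicate 1 the adjusted p was 0.000167, but it rose above the threshold when any other library was left out, to 0.0844, 0.0823 and 0.0538 without control replicates 1, 2 and 3 and to 0.0789 and 0.0938 without g*Spns1*-cKO replicates 2 and 3. Keeping every gene with a count also ended the call (adjusted p = 0.0799). Since *Cyp3a25* had many times the counts of *Cyp3a59* and the pair share sequence, the level per kilobase of *Cyp3a59* was also taken as a percent of that of *Cyp3a25* in the same library. That ratio was 3.22%, 3.28% and 4.30% in control replicates 1, 2 and 3 and 6.87%, 10.9% and 11.3% in g*Spns1*-cKO replicates 1, 2 and 3. The ratio was chosen after seeing the data and has no test, and how many *Cyp3a25* reads were counted on *Cyp3a59* was not tested.

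*Cyp3a57*, the third member of that group, was counted 0, 1 and 0 times in control replicates 1, 2 and 3 and 30, 29 and 30 times in g*Spns1*-cKO replicates 1, 2 and 3. It was thus close to undetected in control livers and low but even in all 3 g*Spns1*-cKO livers, at 0.834, 0.756 and 0.763 CPM. Summed over the libraries and scaled, 89 counts against 1 gave a ratio of 65.9, with a 95% interval of 11.5 to 2630 that covers counting error only. The edgeR adjusted p was 0.000323, and *Cyp3a57* stayed past the threshold of 0.05 in every other setting that kept it, while a filter of 10 counts in every library removed it. The main filter kept *Cyp3a57* only through the g*Spns1*-cKO livers, where it is high. Its adjusted p and its calls across settings are therefore only a description. The level per kilobase of *Cyp3a57* reached at most 0.205% of that of *Cyp3a25* in the same library. Its percent of *Cyp3a25* was 0, 0.00901 and 0 in control replicates 1, 2 and 3 and 0.205, 0.103 and 0.130 in g*Spns1*-cKO replicates 1, 2 and 3.

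The members known as fetal, neonatal or female forms stayed low. *Cyp3a16* was counted 26, 1 and 0 times in control replicates 1, 2 and 3 and 83, 35 and 3 times in g*Spns1*-cKO replicates 1, 2 and 3. Its counts varied widely within both groups, which overlapped, and the log2 fold change of 1.76 had a 95% interval of -2.17 to 5.68 (edgeR adjusted p = 0.416). It rested on single libraries, with a log2 fold change of 5.66 without control replicate 1 and 0.61 without g*Spns1*-cKO replicate 1, and was called in neither case. *Cyp3a44* was counted 0, 0 and 1 times in control replicates 1, 2 and 3 and 2, 14 and 15 times in g*Spns1*-cKO replicates 1, 2 and 3. The ratio of the scaled sums, 31 counts against 1, was 23.0 with a 95% counting interval of 3.83 to 936. The filter left it out, and with every gene of at least 1 count kept its edgeR adjusted p was 0.00621. *Cyp3a44* shared 6.95% and *Cyp3a16* 6.13% of their 50-base stretches with the far more abundant *Cyp3a11*. How many *Cyp3a11* reads were counted on either was not tested.

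*Cyp3a41a* had 0 counts in all 6 libraries. *Cyp3a41b* had 2 counts in g*Spns1*-cKO replicate 2 and 0 in the 5 other libraries. With 2 counts in all, the groups could not be compared for this near-identical pair, and no fold is given. A count of 0 allows up to 3 counts, or 0.119 CPM in the shallowest scaled library, for reads that could be counted on the pair. As most of their stretches match both genes, it sets no such limit on their transcripts where such reads were not counted. The other listed rows of this name, the pseudogenes *Cyp3a61-ps1* and *Cyp3a63-ps*, had 0 counts and 1 count in all.

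**Figure D2:**
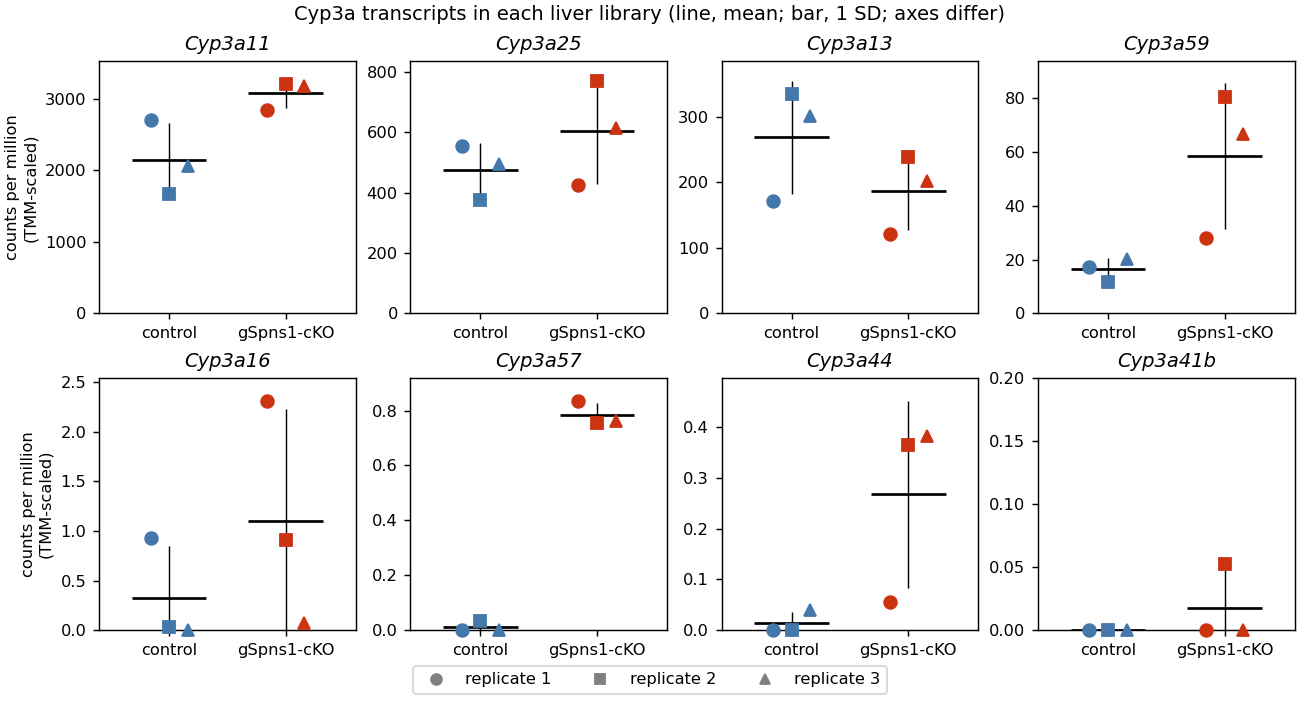
Levels in CPM (TMM-scaled, linear axes that differ between panels and start at 0) of 8 members in the 3 control (blue) and 3 g*Spns1*-cKO (red) livers, where the symbol gives the replicate number, the line the mean and the bar 1 SD. *Cyp3a57* lies between 0.756 and 0.834 CPM in all g*Spns1*-cKO livers, whereas replicate 1 is the lowest of the 3 g*Spns1*-cKO livers for *Cyp3a11*, *Cyp3a25*, *Cyp3a13*, *Cyp3a59* and *Cyp3a44* and the highest for *Cyp3a16*. *Cyp3a41a*, at 0 in all libraries, is not drawn.

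The direction of the members under each way of processing is shown next, because the scaling of these libraries matters. Scaling by library size alone shifted the median over all genes tested from 0.01 to 0.46 (log2) and upper-quartile scaling moved it to 0.14. Scaling by the 12 hepatocyte markers moved it to 0.79. *Cyp3a11*, *Cyp3a25*, *Cyp3a59*, *Cyp3a57* and *Cyp3a16* kept a positive log2 fold change under each of these, and the *Cyp3a11* value stayed above the median of all genes in each, at 0.96, 0.65 and 1.31. *Cyp3a13* stayed below that median in each, also with hepatocyte marker scaling, where its log2 fold change was 0.25.

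**Figure D3:**
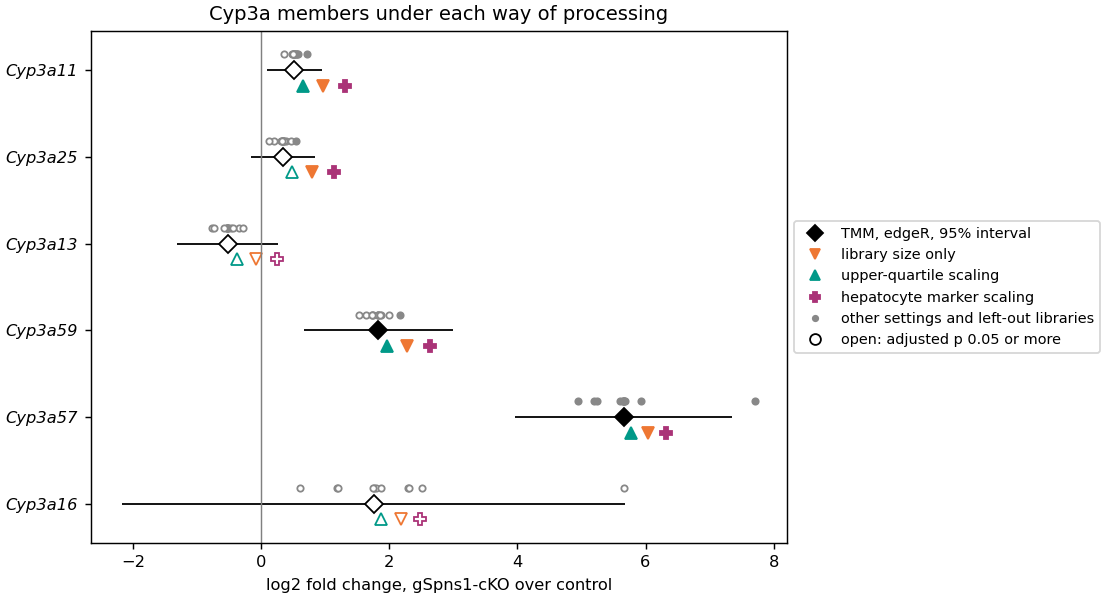
Log2 fold change, g*Spns1*-cKO over control, of the 6 members tested (horizontal axis; the vertical line is 0) with the 95% interval of the edgeR fit, and the value under each other scaling, tool, filter, replicate block and left-out library. Filled symbols have an adjusted p under 0.05. *Cyp3a57* is filled throughout, *Cyp3a11* is open with TMM at 0.52 and filled with library size alone at 0.96, and *Cyp3a13* is negative except at 0.25 with hepatocyte marker scaling, which moves the median of all genes to 0.79.

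Levels of different members can be compared only per length. Per kilobase of the deposited gene length, the order in control livers was *Cyp3a11* (421 ± 102 CPM per kilobase), *Cyp3a25* (228 ± 43.3), *Cyp3a13* (91.0 ± 29.1), *Cyp3a59* (8.22 ± 2.15) and *Cyp3a16* (0.184 ± 0.303; SD, n = 3 for each). In g*Spns1*-cKO livers the same 4 genes led in the same order, at 603 ± 39.7, 289 ± 82.9, 63.4 ± 20.4 and 29.2 ± 13.6 CPM per kilobase. The ranges of neighbours among these 4 did not overlap in either group, although *Cyp3a59* in the highest g*Spns1*-cKO liver, at 40.3 CPM per kilobase, came close to *Cyp3a13* in the lowest, at 41.0. *Cyp3a16*, *Cyp3a57* and *Cyp3a44* followed at no more than 1.33 CPM per kilobase in any library, and their order could not be told from their spread. The deposited length of *Cyp3a11*, 5093 bases, is more than 2 times that of its coding transcript used here, 2344 bases. Per kilobase of that transcript its level was 914 ± 222 CPM in control and 1310 ± 86.2 CPM in g*Spns1*-cKO livers, so the length chosen alters how far *Cyp3a11* leads but not the order.

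As a percent of the summed level per kilobase, *Cyp3a11* held between 52.2% and 61.4% of the family in control livers and from 56.1% to 68.1% in the g*Spns1*-cKO group. With the transcript lengths these ranges were 69.8% to 77.0% and 72.9% to 81.8%. *Cyp3a25* held 28.8% to 31.4% and 24.9% to 33.0%, by deposited length. *Cyp3a13* varied the most among control livers, from 6.72% to 18.0%, and held 5.01% to 7.23% in g*Spns1*-cKO livers. *Cyp3a59* held 0.944% to 1.35% and then 1.71% to 3.60%, without overlap. How often groups do not overlap over all genes was not counted, so this is only a description.

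**Figure D4:**
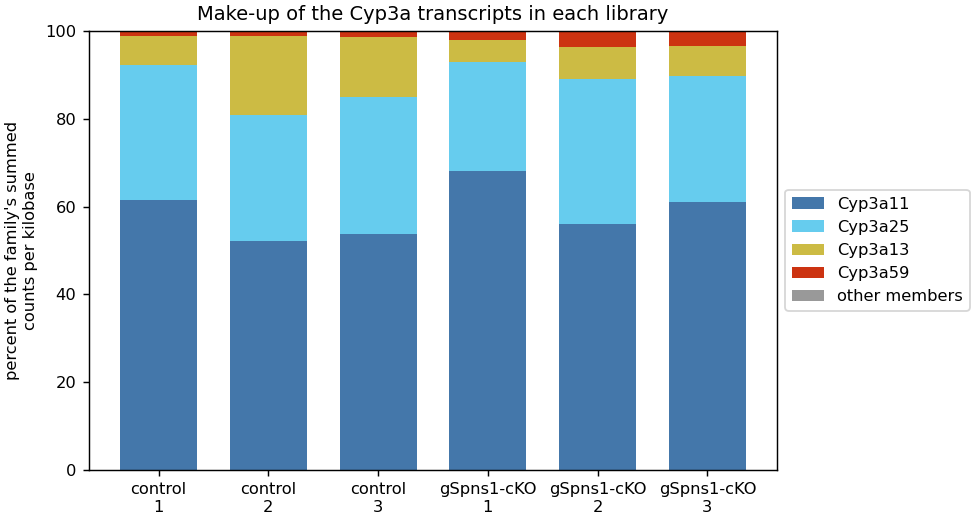
Percent of the family's summed CPM per kilobase (vertical axis, deposited gene lengths) that each member held in each of the 6 libraries. *Cyp3a11* and *Cyp3a25* make up most of every bar, the *Cyp3a59* segment grows from at most 1.35% in control to at least 1.71% in g*Spns1*-cKO livers, and members other than *Cyp3a11*, *Cyp3a25*, *Cyp3a13* and *Cyp3a59* are too low to be seen.

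Apart from any reads dropped as matching several genes, the summed level of the family does not depend on how reads are split between members. It was 3443, 2390 and 2874 CPM in control replicates 1, 2 and 3 and 3415, 4290 and 4059 CPM in g*Spns1*-cKO replicates 1, 2 and 3. The groups overlapped, since g*Spns1*-cKO replicate 1 lay just below control replicate 1. The means of 2902 ± 527 and 3921 ± 454 CPM gave a ratio of 1.35 (log2 ratio 0.43), and a two-sided exact permutation test gave p = 0.2, or 0.4 after adjustment over 2 sums, the other being that of the *Cyp3a41* pair, where 0.1 is the smallest p that 3 livers against 3 allow. Of all counts, without TMM scaling, the family took 0.298%, 0.209% and 0.240% in control and 0.395%, 0.504% and 0.472% in g*Spns1*-cKO livers, and on this scale the groups did not overlap. Without *Cyp3a11* the ratio of the summed CPM was 1.12, and the g*Spns1*-cKO livers spread from 577 to 1092 CPM around the 723 to 815 CPM of the control livers. The groups of close copies, formed after seeing the sequences, were described in the same way. The *Cyp3a11* group summed to 2700, 1667 and 2060 CPM in control and 2840, 3199 and 3178 CPM in g*Spns1*-cKO replicates 1, 2 and 3, nearly all of it *Cyp3a11*. The *Cyp3a25* group summed to 571, 388 and 514 CPM and to 454, 851 and 680 CPM, with overlap.

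Genes that serve P450 proteins with electrons and heme were counted next. Of 9 such genes 4 were lower, 1 was higher and 4 did not pass the test, with a median log2 fold change of -0.51. *Por*, which encodes P450 oxidoreductase, was at 480, 724 and 708 CPM in control replicates 1, 2 and 3 and at 254, 654 and 435 CPM in g*Spns1*-cKO replicates 1, 2 and 3. The groups overlapped and it was not called (log2 fold change -0.51, 95% interval -1.31 to 0.29, edgeR adjusted p = 0.273). *Cyb5a*, the cytochrome b5 that assists many P450 reactions, was not called either (log2 fold change 0.14, adjusted p = 0.596). The 4 lower genes were *Pgrmc2* and *Pgrmc1*, heme-binding membrane proteins, at log2 fold changes of -0.95 and -0.92, *Cyb5b*, the outer mitochondrial membrane cytochrome b5, at -0.76 and *Cyb5r3*, a cytochrome b5 reductase, at -0.76. *Hmox1*, the heme oxygenase that breaks heme down, rose, from 12.3, 17.4 and 15.2 CPM in control to 56.3, 55.6 and 55.6 CPM in g*Spns1*-cKO replicates 1, 2 and 3 (log2 fold change 1.90, SE 0.13, edgeR adjusted p = 7.56e-06, n = 3 per group). This is RNA, whereas the paper reports the HMOX1 protein as unaltered in Western blots of control and g*Spns1*-cKO livers.

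Of 30 tested receptors and transcription factors of the liver, 13 were lower, 3 were higher and 14 were not called, with a median log2 fold change of -0.24. *Nr1i2*, which encodes PXR, fell from 110 ± 8.32 to 75.7 ± 18.0 CPM (log2 fold change -0.54, SE 0.16, edgeR adjusted p = 0.0206, n = 3 per group), and its groups did not overlap. *Nr1i3*, which encodes CAR, was at 34.0, 34.0 and 41.1 CPM in control and 17.3, 47.1 and 33.4 CPM in g*Spns1*-cKO replicates 1, 2 and 3, and was not called (log2 fold change -0.16, adjusted p = 0.761). *Rxra*, the partner of both receptors, fell from 550 ± 82.0 to 302 ± 29.9 CPM (log2 fold change -0.87, edgeR adjusted p = 0.00147, n = 3 per group). *Hnf4a*, a nuclear receptor of hepatocytes, missed the threshold (log2 fold change -0.42, adjusted p = 0.0666). The lowest values among those called were those of the clock-output factor *Dbp* (-2.58), *Onecut1* (-1.44), *Cebpa* (-1.41) and *Foxa3* (-1.34), all hepatocyte transcription factors but *Dbp*. The 3 higher genes were *Ppargc1a*, a coactivator of fasting metabolism (1.30), *Nr0b2*, the repressor SHP (1.20), and *Foxa2* (0.49).

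Of 37 tested targets of PXR and CAR outside the Cyp3a family, 10 were higher, 6 lower and 21 not called. These shares, 27.0% higher and 16.2% lower, were near those of all genes tested, 21.3% and 20.5%, and are no result about the list. Its median log2 fold change was 0.41. *Cyp2b10*, the P450 most used as a readout of CAR, rose from 0.797 ± 0.440 to 6.69 ± 3.66 CPM (log2 fold change 3.09, SE 0.57, edgeR adjusted p = 0.00494, n = 3 per group). The largest log2 fold changes were those of *Cyp2b9* (8.47), the estrogen sulfotransferase *Sult1e1* (7.59) and the aldo-keto reductase *Akr1b7* (6.34), all with control levels under 0.9 CPM. The lowest were those of the aldehyde dehydrogenase *Aldh1a1* (-1.90), the carboxylesterase *Ces2c* (-1.78), *Cyp2c54* (-1.59) and the carboxylesterase *Ces2a* (-1.20). *Cyp2b10*, *Cyp2b9* and *Sult1e1* also stand in the list of genes with female-biased expression.

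Since several members differ between the sexes in adult mice, genes with a known sex bias under growth hormone and STAT5 were set beside them. Of 28 tested male-biased genes 21 were lower and 0 higher, and the list's summed level was 25650 to 34300 CPM in control and 1329 to 3459 CPM in g*Spns1*-cKO livers. The 4 lowest were the urinary protein genes *Mup7*, *Mup12*, *Mup11* and *Mup1*, which had between 0 and 2 counts in every g*Spns1*-cKO liver. Reads of this multigene family are split between near-identical copies, so single *Mup* genes are uncertain. Of 27 tested female-biased genes 16 were higher, 1 was lower and 10 were not called. The female-biased list summed to 783, 494 and 625 CPM in control and to 962, 2209 and 1762 CPM in g*Spns1*-cKO replicates 1, 2 and 3. *Cyp2a4*, a steroid hydroxylase gene with near-identical copies, had a log2 fold change of 7.05, and *Cyp17a1*, a steroid hydroxylase, was the 1 lower gene, at -1.43. As for *Cyp3a11*, *Cyp3a25*, *Cyp3a13*, *Cyp3a59* and *Cyp3a44*, g*Spns1*-cKO replicate 1 had the lowest value of its group for the list's sum. The same held for *Por*, *Nr1i2* and *Nr1i3*, so the pattern is not particular to female-biased genes, and *Cyp3a16* was highest in that liver. That liver had the highest value of its group for the male-biased sum, 3459 CPM. Among the members known as female forms, *Cyp3a41a* and *Cyp3a41b* had 2 counts in all, but reads matching both may not have been counted. *Cyp3a44* had at most 1 count in any control library and 2, 14 and 15 counts in g*Spns1*-cKO replicates 1, 2 and 3. Of 9 tested fetal and neonatal genes 5 were called higher and 0 lower. The higher genes were *Sox4* (log2 fold change 3.37), *H19* (3.18), *Scd2* (2.38), *Plagl1* (2.26) and *Mest* (1.12), of which *H19*, below a mean of 1 CPM, was named after its values were seen. *Cyp3a16* was not called. *Hbb-bh1*, an embryonic globin gene of that list, had no count in any library.

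**Figure D5:**
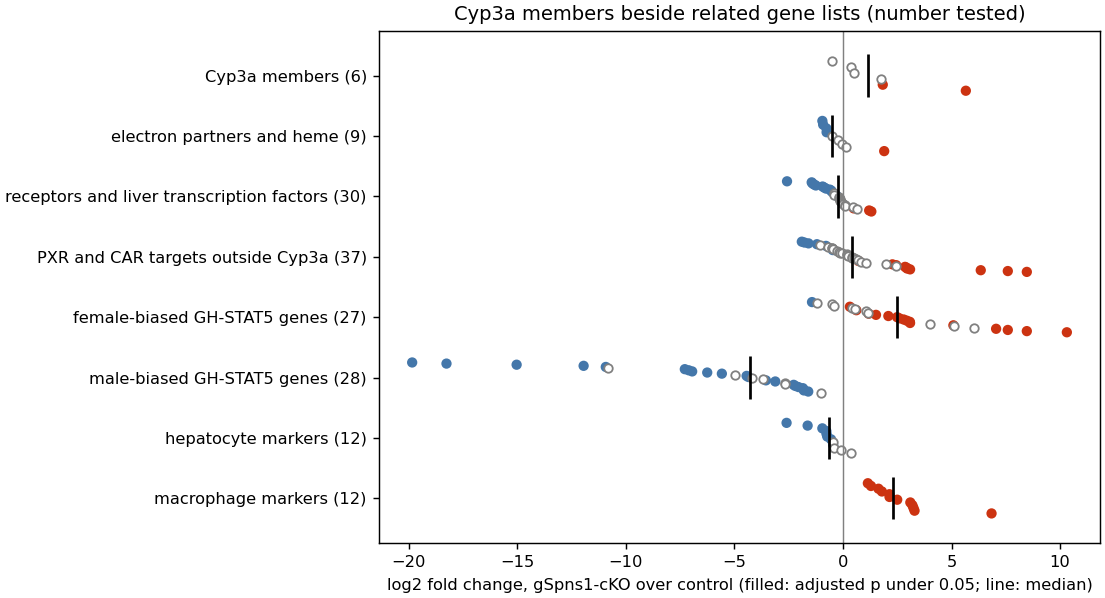
Log2 fold change, g*Spns1*-cKO over control (horizontal axis), of each tested gene among the Cyp3a members and 7 gene lists, with the number tested in parentheses; filled points passed an adjusted p of 0.05 (red higher, blue lower), open points did not, and the line is the median. The 6 members lie from -0.52 to 5.66 with 2 filled, the macrophage markers are all filled and higher, and 21 of 28 male-biased genes are filled and lower. The most negative fitted values are those of genes with almost no counts in g*Spns1*-cKO livers and are no measure of size.

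The promoters of the *Cyp3a25* group are shown as a description only. In the main setting *Cyp3a57* and *Cyp3a59* were called higher and *Cyp3a25* was not, but a difference between the members was not tested. *Cyp3a57* passed the filter only through the g*Spns1*-cKO livers, and *Cyp3a59* lost its call in several settings. *Cyp3a25* was itself called higher without g*Spns1*-cKO replicate 1. Each promoter is the 250 bases before the RefSeq gene start (GRCm38.p6), in the sense direction, and capitals mark a match to a motif searched on both strands.
*Cyp3a25*, chr5:146009619-146009868, minus strand: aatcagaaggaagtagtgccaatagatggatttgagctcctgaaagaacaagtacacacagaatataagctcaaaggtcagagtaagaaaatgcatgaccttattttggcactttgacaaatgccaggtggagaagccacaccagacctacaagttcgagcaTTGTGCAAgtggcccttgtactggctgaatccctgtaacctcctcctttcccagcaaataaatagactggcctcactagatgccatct
*Cyp3a59*, chr5:146079008-146079257, plus strand: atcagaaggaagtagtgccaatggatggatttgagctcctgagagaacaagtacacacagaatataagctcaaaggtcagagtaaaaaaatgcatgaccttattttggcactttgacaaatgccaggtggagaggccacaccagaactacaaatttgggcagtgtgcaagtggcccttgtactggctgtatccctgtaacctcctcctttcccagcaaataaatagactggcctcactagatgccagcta
*Cyp3a57*, chr5:145345019-145345268, plus strand: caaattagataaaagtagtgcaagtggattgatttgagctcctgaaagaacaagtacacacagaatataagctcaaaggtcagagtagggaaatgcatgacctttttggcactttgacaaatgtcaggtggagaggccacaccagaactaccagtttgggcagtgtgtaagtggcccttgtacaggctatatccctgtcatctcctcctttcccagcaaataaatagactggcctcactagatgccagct

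All 9 members had a RefSeq promoter, and 5 motifs were searched in the 250 bases of each. The letters TTGCNNAA, a pattern of CCAAT/enhancer-binding proteins, occurred in *Cyp3a25* and in 9.56% of 32851 promoters. They did not occur in the window of *Cyp3a57* or *Cyp3a59*. The nuclear receptor hexamer AGTTCA occurred in *Cyp3a11*, *Cyp3a41a* and *Cyp3a41b* and in 11.8% of all promoters. It was the only nuclear receptor pattern searched, so the other members are not shown to lack such sites. The similar letters AGGTCA were not searched and stand unmarked in each promoter printed above. The letters TATAAA occurred in 12.4% of all promoters. Among the members they occurred in *Cyp3a11*, *Cyp3a16*, *Cyp3a41a*, *Cyp3a41b* and *Cyp3a44*, that is, in every member of the *Cyp3a11* group and in no other. The match of *Cyp3a11* lay farther upstream of the gene start than those of the rest of its group, in a different part of the window. The TATAAA matches are therefore not a site that the whole group shares. The STAT5 pattern TTCNNNGAA, found in 7.02% of all promoters, and the HNF1 pattern, found in 0.00913%, occurred in 0 of 9 members. Hexamers of this kind occur often by their letters alone, and none of these matches was tested for binding.

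The genes whose log2 CPM over the 6 libraries was most like that of *Cyp3a11*, among 8010 tested genes whose mean reached 10 CPM, were *Hnrnph1* (Pearson r = 0.989), *Zfp62* (r = 0.986) and *Cavin2* (r = 0.984). For *Cyp3a13* they were *Supt6* (r = 0.990), *Cxcl12* (r = 0.986) and *Tmco4* (r = 0.981). The 6 points share the difference between the groups, and the values describe likeness of pattern only.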

How the data were processed

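The authors deposited 1 table for the 6 libraries, with whole-number counts per gene that were not normalized. Per the labels, polyA RNA reads were trimmed with fastp, aligned to mm10 (GRCm38) with HISAT2 2.0.5 and counted with featureCounts 1.5.0-p3 by a sequencing service. The strand and multi-mapping settings are not given in the sources used here. The authors also deposited FPKM values, a signal per group (mean scaled counts), and their own comparison (log2 fold changes with raw and adjusted p-value columns). None of these was used, and of the other columns only the deposited gene lengths were.

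Of 54532 genes listed, 26590 had a count and filterByExpr kept 15449. Counts were scaled by TMM and compared in R 4.3.3 with edgeR 4.0.16 (quasi-likelihood test, robust, no covariate, Benjamini-Hochberg adjustment over all genes tested, threshold 0.05). Intervals of fits are 95% intervals. The libraries are labelled as separate animals, and no 2 of a group agreed within sampling noise (chi-square per gene of 38.8 to 114). Reads carry no molecular identifiers, so counting intervals and the floor of 3 counts cover counting error only. On simulated data with known changes, all 3 tools returned the fold changes with little bias, but the share of false calls was above the nominal level with each, most with DESeq2 1.42.0, and adjusted p-values close to the threshold are to be read accordingly. No limit was set on that share, since the limit first used was dropped after its result was seen.

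The members and the 13 gene lists were chosen with earlier results of these data known. Genes named are the members, other *Cyp3a* rows, *Spns1*, *Por*, *Cyb5a*, *Nr1i2*, *Nr1i3*, *Rxra*, *Hnf4a*, the X- and Y-linked genes, up to 4 called genes per list and direction with a mean of at least 1 CPM (not all are repeated in the text, and 1 gene that the rule selects is not reported here), and the 3 most alike in pattern. Hepatocyte marker scaling, the groups of close copies, the ratios between members and a relaxed search pattern for the heme-binding site of *Cyp3a59* were chosen after seeing the data or the sequences. Transcripts came from GENCODE M21 and promoters from RefSeq. Other settings tried were limma 3.58.1 (voom), DESeq2, other scalings, filters and thresholds, a replicate block and leaving out each library.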

Additional observations from a re-analysis of the deposited data

How the results depend on the processing

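Over all genes, 3286 were called higher and 3166 lower. Scaling by library size alone gave 7289 and 970, an adjusted p under 0.01 gave 1983 and 1907, and hepatocyte marker scaling, added after seeing the data, gave 10436 and 496. Of all calls 50.9% were higher with TMM, 64.7% with upper-quartile scaling, 88.3% with library size alone and 95.5% with hepatocyte marker scaling. Leaving out 1 library gave 2365 to 3213 higher and 2125 to 3216 lower calls. Of the 6 members tested 2 were called higher, beside 3286 of 15449 genes. The members called higher were 4 with library size alone, beside 7289 genes, and 4 with hepatocyte marker scaling, beside 10436 genes. At an adjusted p under 0.01 there was 1, beside 1983 genes. These member counts are no result about the family. Leaving out 1 library gave 1 to 5 members called higher, with 1 without control replicate 2 or g*Spns1*-cKO replicate 2 or 3. The 5 came without g*Spns1*-cKO replicate 1, where 7 members were tested and 3213 of 15875 genes were called higher. *Cyp3a13* reversed, to a log2 fold change of 0.25 (adjusted p = 0.607), only with hepatocyte marker scaling, which by its construction shifts all genes (median from 0.01 to 0.79), and *Cyp3a13* stayed below the median. The log2 ratio of the family's sum was 0.43, against 0.88 as a percent of all counts, 0.16 without *Cyp3a11* and 0.31 to 0.58 with 1 library left out. The pair *Cyp3a41a* and *Cyp3a41b* as 1 row did not pass the filter, so it has no fold under any setting, and no gene pattern was compared with it.

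Whether the replicate numbers pair the livers was not settled. The deviations of same-numbered livers correlated at 0.037, 0.033 and -0.028. Replicates 1 and 2 of both groups were most like their own number, and replicate 3 of neither group was. Livers of different numbers correlated at -0.065 to 0.032, and values this small cannot decide it. With the replicate number as a block, 3084 genes were called higher and 3016 lower. Among members 2 were then higher, *Cyp3a57* and *Cyp3a16* (log2 fold change 2.29, adjusted p = 0.0318), and 1 lower, *Cyp3a13* (-0.52, adjusted p = 0.0119). *Cyp3a59* (1.73, adjusted p = 0.0697) and *Cyp3a11* (0.55, adjusted p = 0.0645) were not called. The block lowered the SE of *Cyp3a13* from 0.33 to 0.125 and that of *Cyp3a16* from 1.56 to 0.7. It raised the SE of the other members tested. The mean log2 ratio of the family's sum over same-numbered livers was 0.44.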
